A study of Homo sapiens with 6 samples.

Results

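Annexins are a family of proteins that bind acidic phospholipids of cell membranes in the presence of calcium. The genes described here are 9 members of that family, ANXA1, ANXA2, ANXA3, ANXA4, ANXA5, ANXA6, ANXA7, ANXA9 and ANXA11, of 18417 genes tested in all. They share the family name, each is represented by its probe set with a single gene symbol, and each had exactly 1 such probe set. ANXA10 and ANXA13 also have the name and such a probe set, but were not counted among the 9. Expression was measured on 6 single-channel arrays of THP-1, an established human line from a monocytic leukaemia: 3 from unstimulated cells and 3 from cells turned macrophage-like by phorbol myristate acetate (PMA), an activator of protein kinase C. The PMA group received 200 nM for 3 days and then rested for 3 days without it. The labels record no further treatment, no genetic change and no source of the replicates, so every p-value below reflects variation among arrays that could be purely technical.

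An annexin core is built of repeats that hold calcium and dock on the membrane, and a variable N-terminal part binds partners, often small EF-hand proteins of the S100 family. In leukocytes the family is known for resolving inflammation (ANXA1, through formyl peptide receptors), for holding plasminogen and its activator at the cell surface (ANXA2 with S100A10), for binding phosphatidylserine on dying cells (ANXA5), for traffic of endosomes and cholesterol (ANXA6), and for patching torn plasma membrane. PMA is also known as TPA, and the DNA element bound by the transcription factor AP-1 was named the TPA response element after it.

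All levels below are log2 values. The median of an array lay at 6.10 to 6.25 and its lower quartile at 4.46 to 4.57, and a level near or below the quartile is treated here as near background. Arrays of the same group correlated at r of 0.988 to 0.995 over all probe sets, and arrays of different groups at 0.958 to 0.968. All 10 measured monocyte and macrophage markers had group means above the lower quartiles in both groups, among them SPI1, CD68 and PTPRC. Of these 10, 5 were higher with PMA (CD14, CSF1R, ITGAM, TYROBP and FCER1G) and 1 lower (LYZ), and their mean level was 10.17 to 10.53 on unstimulated and 10.77 to 10.93 on PMA arrays. Over all genes tested, 26.4% passed in either direction. Of 25 measured markers of T cells, B cells, epithelium, fibroblasts, erythroid and megakaryocytic cells and endothelium, 1 passed upwards (PDGFRB) and 2 downwards (KRT18 and CD79A). The mean level of those 25 was 5.12 to 5.27 on unstimulated arrays and 5.18 to 5.34 on PMA arrays, and 5 of them had both group means below every lower quartile. The part of either marker list in the annexin values was not tested.

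RefSeq promoter windows (build GRCh38.p14) were found for all 9 annexin genes, 13 windows in all because ANXA4, ANXA6 and ANXA11 have several starts. The 160 bases before the first listed start are shown for 5 members, ANXA2 and ANXA5 with the largest rises, ANXA3 and ANXA6 with the largest falls, and ANXA1, whose upstream sequence holds a TATA box and no GC box. They lie at chr15:60397987-60398146, minus strand (ANXA2), chr9:73151705-73151864, plus strand (ANXA1), chr4:121696981-121697140, minus strand (ANXA5), chr5:151157780-151157939, minus strand (ANXA6) and chr4:78551610-78551769, plus strand (ANXA3). Capitals mark letter matches on either strand to the motifs described in the next paragraph.
ANXA2: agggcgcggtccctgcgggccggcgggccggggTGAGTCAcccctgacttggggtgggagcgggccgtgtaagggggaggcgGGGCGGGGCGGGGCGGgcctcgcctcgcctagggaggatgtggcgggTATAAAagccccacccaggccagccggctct
ANXA1: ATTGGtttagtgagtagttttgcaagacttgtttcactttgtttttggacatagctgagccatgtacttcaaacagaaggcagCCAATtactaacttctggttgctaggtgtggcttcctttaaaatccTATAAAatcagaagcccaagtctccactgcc
ANXA5: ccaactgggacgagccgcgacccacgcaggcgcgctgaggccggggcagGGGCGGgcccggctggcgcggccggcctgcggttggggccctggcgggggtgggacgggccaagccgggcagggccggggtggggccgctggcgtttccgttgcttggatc
ANXA6: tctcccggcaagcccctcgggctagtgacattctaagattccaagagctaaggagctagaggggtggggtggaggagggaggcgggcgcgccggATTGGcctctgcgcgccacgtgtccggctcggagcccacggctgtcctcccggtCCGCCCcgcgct
ANXA3: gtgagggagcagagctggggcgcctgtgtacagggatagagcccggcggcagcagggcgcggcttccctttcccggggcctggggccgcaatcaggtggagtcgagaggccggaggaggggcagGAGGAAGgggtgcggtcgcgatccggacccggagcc

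In the full windows, which run from 250 bases before to 50 after a start, the AP-1 element TGANTCA matched in 1 annexin gene. That gene was ANXA2, with its first base 127 before the start. This was 1 of the 13 annexin windows, and the same letters occur in 7.71% of 35116 windows of this length. The TATA box, TATAAA, matched in 3 genes. Its first base was 31 before the start in ANXA1 and ANXA2 and 61 before a start in ANXA11. It was held by 3 of the 13 annexin windows, against 11.5% of all windows. The GC box, searched as GGGCGG, was found in 6 genes (ANXA2, ANXA4, ANXA5, ANXA6, ANXA7 and ANXA11). It was held by 7 of the 13 annexin windows, against 45% of all windows. In ANXA2 its 3 matches follow each other, neighbours sharing 1 base. The PU.1 core GAGGAAG matched in ANXA3 and ANXA11, in 2 of the 13 windows (13.6% of all windows). The CCAAT box matched in ANXA1, ANXA6, ANXA7 and ANXA11, in 4 of the 13 (34.6%). The cAMP response element TGACGTCA matched in none of the 13 (1.85%). A match describes letters only, not a bound site.

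The comparison of PMA-treated with unstimulated cells asks how expression changes when the line becomes macrophage-like. The annexin family split. ANXA2 and ANXA5 rose by 3.03-fold and 2.08-fold and ANXA1 and ANXA11 by smaller amounts, while ANXA3, ANXA6, ANXA4 and ANXA9 fell. Of the 9 genes, 4 passed an adjusted p of 0.05 upwards and 4 downwards in limma with Benjamini-Hochberg adjustment over all genes. Over all 18417 genes 26.4% passed, 13.2% higher and 13.2% lower. ANXA10 and ANXA13, not counted in the 9, lay below the lower quartiles, did not pass and had overlapping groups. The shares of all genes include such dim genes, and without the lowest 25% of genes 33.8% passed. With arrays centred on their medians 61.8% of all calls were upwards, in place of 50.1%, and 4 annexins were higher and 3 lower. A rise of at least 2-fold was seen in 2 of the 9 (ANXA2 and ANXA5), against 5.17% of all genes, and a fall of that size in none, against 3.20% (8.37% in both directions together). The median log2 fold change of the 9 was 0.20, against −0.03 over all genes. The 3 arrays of one group lay apart from the 3 of the other for all 9 annexins, where 41.2% of all genes did so. PMA arrays were the higher ones in 5 (19.2% of all genes) and the lower ones in 4 (22.0%). Without the PMA replicate 1 array, 2 were lower in place of 4, because ANXA4 and ANXA9 no longer passed, and 3 were higher, because ANXA1 no longer passed. Over all genes 18.0% passed in that fit, the lowest share among the 6 fits without 1 array. The highest was 27.4%, without PMA replicate 3.

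**Figure D1:**
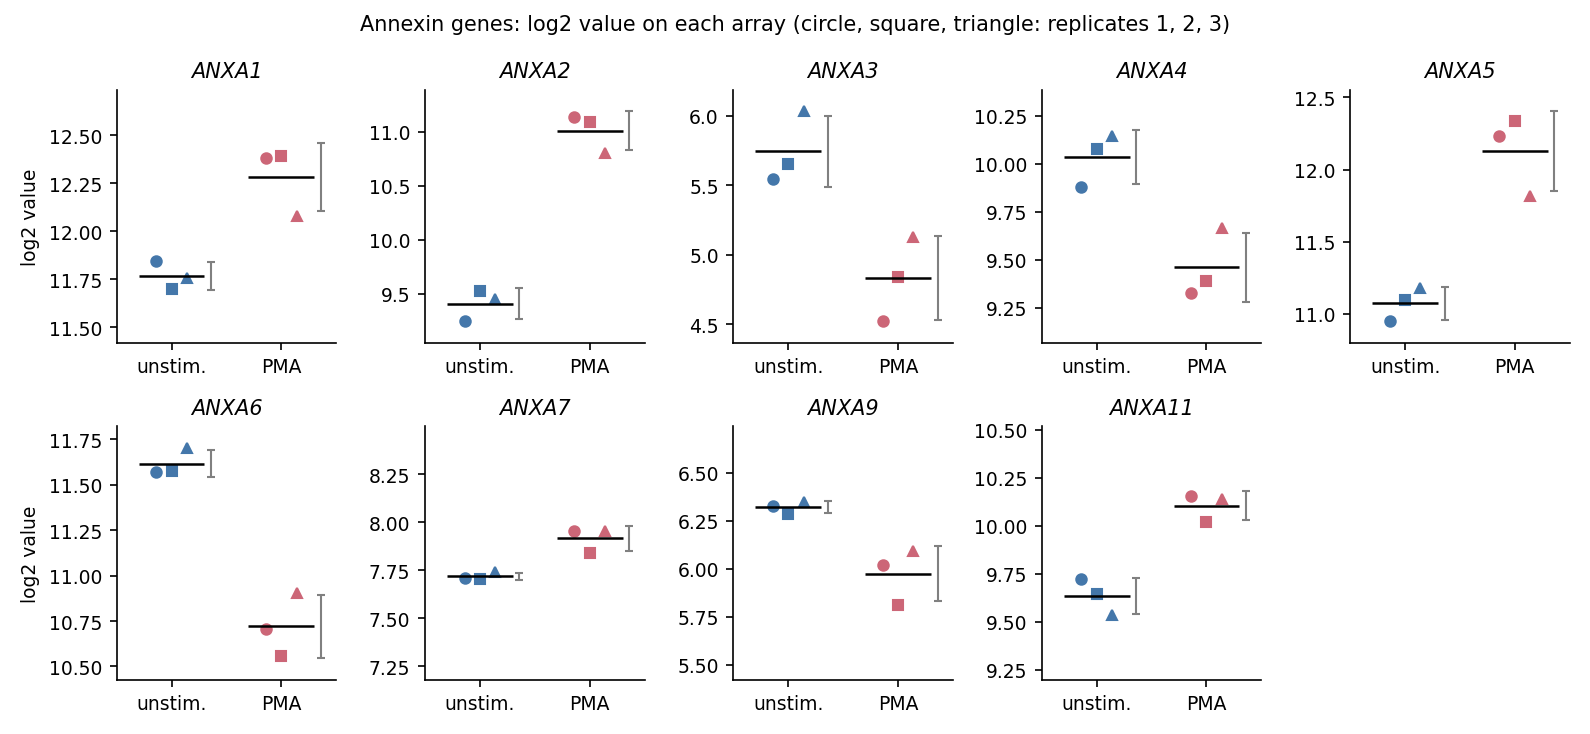
Log2 value of each of the 9 annexin genes on every array, with unstimulated arrays in blue and PMA arrays in red; the vertical axis differs between panels, circles, squares and triangles are replicates 1, 2 and 3, black lines are group means and grey bars 1 SD (n = 3). The groups lie apart in every panel, from ANXA2 (9.25 to 9.52 against 10.80 to 11.13) down to ANXA7 (7.70 to 7.74 against 7.84 to 7.96).

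ANXA2 forms a tetramer with S100A10 that binds plasminogen and links membranes to actin. Its log2 values were 9.25, 9.52 and 9.45 on unstimulated replicates 1, 2 and 3, and 11.13, 11.09 and 10.80 on PMA replicates 1, 2 and 3. Every PMA array exceeded the highest unstimulated array by at least 1.28. Its log2 fold change was 1.60 ± 0.12 (PMA minus unstimulated ± standard error, n = 3 each), with a 95% interval of 1.31 to 1.89 and a limma adjusted p of 9.18e-05. The gene ranked 730 of 18417 by the size of its change. Its upstream sequence, shown above, is the one among the members with the AP-1 letters, which occur in 7.71% of all promoter windows. A part of these letters in the rise was not tested.

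The ANXA2 family also has processed pseudogenes on the array. Probe sets for ANXA2P1 and ANXA2P2 moved by 1.61 ± 0.12 and 1.53 ± 0.11, close to ANXA2 itself, and ANXA2P3 by 0.80 ± 0.15 (limma adjusted p 6.92e-05, 7.90e-05 and 0.00567). The ANXA2P3 call was lost when the gene's own variance replaced limma's moderated one (adjusted p = 0.0568). Near-identical copies can share signal, so the transcripts behind these probe sets and that of ANXA2 cannot be told apart here. A further probe set, annotated to both SNU13 and ANXA2, gave −0.08 and was not used for either gene. By distance over the 6 arrays, each gene centred on its own mean, the 5 genes closest to ANXA2 were PEA15 (log2 fold change 1.62), ASAP1 (1.55), HTR7 (1.61), CARD19 (1.70) and ARFGEF3 (1.63), at Euclidean distances of 0.128 to 0.153.

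ANXA5, the phosphatidylserine-binding annexin used as a label for apoptotic cells, showed the other rise beyond 2-fold. Unstimulated arrays held 10.95, 11.09 and 11.18, and PMA arrays 12.23, 12.34 and 11.81. The lowest PMA value, on replicate 3, still lay 0.64 above the highest unstimulated one. The log2 fold change was 1.05 ± 0.15 (95% interval 0.71 to 1.40, limma adjusted p = 0.00163), which overlaps the interval of ANXA2 between 1.31 and 1.40.

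ANXA1 is the glucocorticoid-induced annexin that signals through formyl peptide receptors. It was 11.85, 11.70 and 11.76 on the unstimulated arrays and 12.38, 12.39 and 12.08 on the PMA arrays. The rise of 0.52 ± 0.11 (1.43-fold, limma adjusted p = 0.0121) left a gap of 0.23 between the groups. ANXA11, which binds ALG-2 and tethers RNA granules to lysosomes, held 9.72, 9.64 and 9.54 without PMA and 10.16, 10.02 and 10.14 with it. Its difference was 0.47 ± 0.09 (1.39-fold, limma adjusted p = 0.00815). The intervals of ANXA1 (0.25 to 0.78) and ANXA11 (0.25 to 0.69) overlap almost fully, so their order is not settled. ANXA1 lost its call without unstimulated replicate 2 (adjusted p = 0.0501) and without PMA replicate 1 (0.0542), while ANXA11 passed in each of the 6 fits that left out 1 array. The ANXA1 call was also lost when the gene's own variance replaced limma's moderated one (adjusted p = 0.0566).

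ANXA7, known as synexin and studied in granule fusion, did not pass (limma adjusted p = 0.134). Values of 7.71, 7.70 and 7.74 in unstimulated cells faced 7.96, 7.84 and 7.95 with PMA. These groups lie apart by 0.10, and the 95% interval of the difference, before adjustment over all genes, ran from 0.0016 to 0.40 on the log2 scale. A change of more than 1.32-fold upwards lies outside that interval. With cyclic loess between arrays ANXA7 passed (0.26, adjusted p = 0.0498).

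ANXA6, an annexin of endosomes with a core of repeats longer than in the other members, had the smallest adjusted p among the members that fell. It was 11.57, 11.58 and 11.70 on the unstimulated arrays and 10.71, 10.56 and 10.90 on the PMA arrays. All PMA values lay at least 0.67 below the lowest unstimulated one. The log2 fold change was −0.89 ± 0.11, a 1.86-fold fall with a limma adjusted p of 0.000957.

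ANXA3, an annexin abundant in neutrophil granules, had the same size of fall and a wider spread. Unstimulated arrays gave 5.54, 5.66 and 6.03 and PMA arrays 4.52, 4.84 and 5.13. The value on PMA replicate 1 lies within the range of the arrays' lower quartiles, so the size of this fall is uncertain. Its log2 fold change of −0.91 ± 0.18 (95% interval −1.34 to −0.49, limma adjusted p = 0.00821) was larger than that of ANXA6 by less than either standard error. The ANXA3 call was lost when the gene's own variance replaced limma's moderated one (adjusted p = 0.0768).

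ANXA4, an annexin mainly studied in epithelial secretion, went from 9.88, 10.08 and 10.15 to 9.33, 9.39 and 9.67. The groups were 0.21 apart and the log2 fold change was −0.58 ± 0.12 (1.49-fold lower, limma adjusted p = 0.0113), a call that ended without PMA replicate 1 (0.0504). The ANXA4 call also ended when the gene's own variance replaced limma's moderated one (adjusted p = 0.0653). ANXA9, an unusual annexin whose calcium sites are degenerate, held 6.33, 6.29 and 6.35 on unstimulated arrays and 6.02, 5.81 and 6.09 on PMA arrays. Its change of −0.35 ± 0.10 had a limma adjusted p of 0.0393. ANXA9 was the least steady of the calls, lost in 5 of the 6 fits that left out 1 array and under all 3 rescalings (adjusted p 0.0967 to 0.114).

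**Figure D2:**
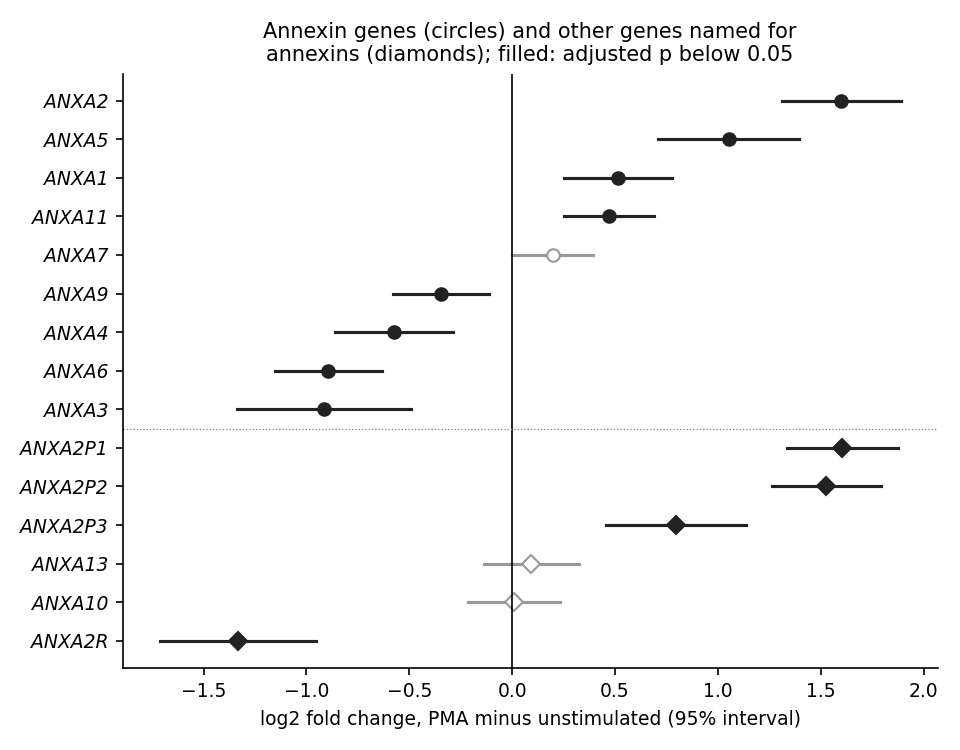
Log2 fold change (PMA minus unstimulated, horizontal axis) of the 9 annexin genes (circles) and of 6 other genes named for annexins (diamonds), with 95% intervals from limma; filled symbols passed an adjusted p of 0.05. ANXA2 (1.60) and ANXA5 (1.05) stand highest among the members and ANXA6 (−0.89) and ANXA3 (−0.91) lowest, and the ANXA2 pseudogenes lie on the side of ANXA2.

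Replicate 3 of the PMA group was the PMA array closest to the unstimulated mean for 7 of the 9 annexins (ANXA1, ANXA2, ANXA3, ANXA4, ANXA5, ANXA6 and ANXA9), in rising and falling genes alike. Across all genes called, it was the closest for 49.98%, against 19.98% for PMA replicate 1 and 30.04% for PMA replicate 2. Without that array ANXA2 changed by 1.70 and ANXA5 by 1.21. With unstimulated replicate 1 also left out, 4 annexins were higher and 4 lower. The share of all genes that passed was 34.3% in that fit, against 26.4% in the reported one.

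Among genes outside the 9, ANXA10 and ANXA13 lay below the lower quartiles on all 6 arrays and did not pass (adjusted p = 0.961 and 0.568). The probe sets of ANXA8 carry a second symbol, ANXA8L1, and are not described. ANXA2R, named as a receptor for ANXA2, fell from 6.66, 6.17 and 6.47 to 5.001, 4.92 and 5.37, a log2 fold change of −1.33 ± 0.16 (limma adjusted p = 0.000881). It moved opposite to ANXA2. The transcripts named after its locus, ANXA2R-AS1 (−1.97 ± 0.24) and ANXA2R-OT1 (−1.07 ± 0.15), fell with it (limma adjusted p 0.000895 and 0.00177), and they were singled out after their values were seen. Whether the array separates the strands of this locus is not given in the sources used here.

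Partners that bind annexins were taken as a list of 19 genes, of which 17 were measured under a single symbol. In limma, 6 of the 17 were higher and 1 lower, where 13.2% of all genes passed in each direction. Their median log2 fold change was 0.11, against −0.03 over all genes. These counts moved with single arrays: 3 were higher without PMA replicate 1, none was lower without unstimulated replicate 3, PMA replicate 1 or PMA replicate 2, and 2 were lower without unstimulated replicate 1 or PMA replicate 3.

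S100A10, the light chain of the ANXA2 tetramer, was 10.12, 11.07 and 11.09 in unstimulated cells and 11.79, 11.86 and 11.70 with PMA. Its unstimulated replicate 1 value lay well below the others. The rise of 1.02 ± 0.25 (limma adjusted p = 0.0181) was 0.70 without that array, which passed, and the call ended without PMA replicate 1 (0.0625) or PMA replicate 2 (0.0557). S100A11, the partner of ANXA1, rose from 11.35, 10.93 and 10.96 to 12.07, 12.17 and 11.70, by 0.90 ± 0.16 (limma adjusted p = 0.00541). The calls of S100A10 and S100A11 were lost when each gene's own variance replaced limma's moderated one (adjusted p = 0.122 and 0.0604). Both light chains therefore stood higher on every PMA array than on any unstimulated array, as did ANXA1 and ANXA2.

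S100B, an EF-hand protein that binds ANXA6, rose by 1.48 ± 0.26 (limma adjusted p = 0.00481), opposite to ANXA6. The S100B call was lost when the gene's own variance replaced limma's moderated one (adjusted p = 0.0684). Cathepsin B, whose precursor binds the ANXA2 tetramer, rose by 1.77 ± 0.18 (CTSB, limma adjusted p = 0.000325). PRKCA, a protein kinase C that binds ANXA6, was the sixth partner to rise (0.42 ± 0.11, limma adjusted p = 0.0206) and was named after its values were seen. Its call ended without unstimulated replicate 2 (0.0604) or PMA replicate 1 (0.0823). S100A6 did not pass (0.11 ± 0.13, adjusted p = 0.625 in limma). S100A4 did not pass either (−0.54 ± 0.40, limma adjusted p = 0.399), since PMA replicate 3 held 10.05 and the other PMA arrays 8.66 and 8.33. Without PMA replicate 3 it passed at −1.06 (adjusted p = 0.00263).

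**Figure D3:**
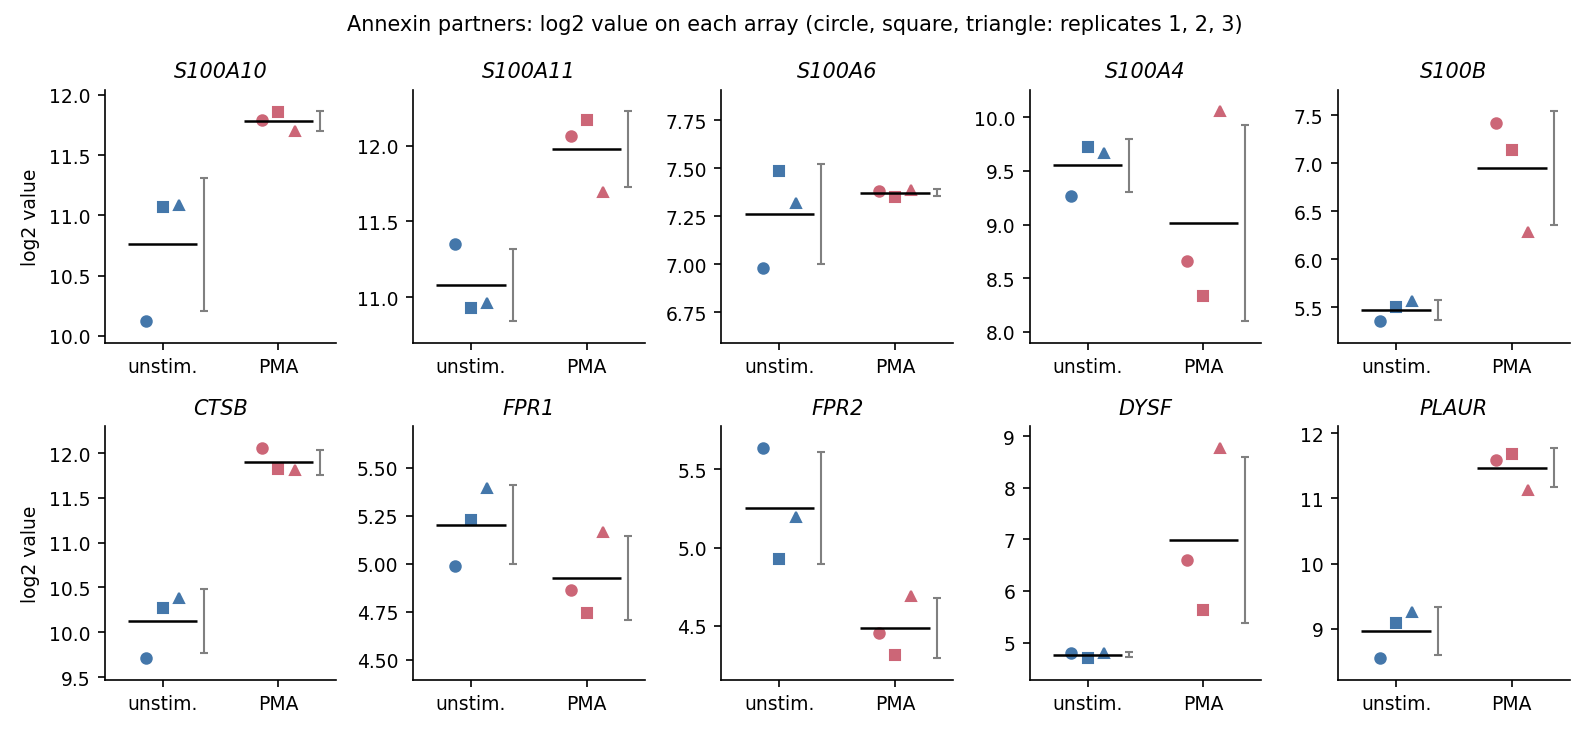
Log2 value on every array of 10 genes whose products bind annexins or act with them, drawn as in the plot of annexins by array (blue unstimulated, red PMA, lines for means, grey bars for 1 SD, n = 3; axes differ between panels). S100A10 shows 1 low unstimulated array (10.12), and DYSF and S100A4 show 1 PMA array (8.77 and 10.05, replicate 3) above the other PMA arrays.

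The other calcium-binding or scaffold partners did not pass in limma. Sorcin, which binds ANXA7, was at −0.25 ± 0.11 (SRI, adjusted p = 0.148). AHNAK, a scaffold of the ANXA2 tetramer, was at −0.11 ± 0.28 (adjusted p = 0.838) with 9.44 on unstimulated replicate 1 and 10.53 and 10.58 on the other unstimulated arrays. Without replicate 1 it passed as lower (−0.48, adjusted p = 0.00929 in limma), and without unstimulated replicate 2 or 3 its sign turned (0.07 and 0.09). PDCD6, the gene of ALG-2, was not measured under a single symbol.

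The formyl peptide receptors, through which ANXA1 acts, did not pass upwards. FPR2 fell from 5.63, 4.92 and 5.19 to 4.45, 4.32 and 4.69 (−0.76 ± 0.19, limma adjusted p = 0.0194). Its PMA mean of 4.49 lies within the range of the lower quartiles, and the call was lost without unstimulated replicate 3 (0.0554), PMA replicate 1 (0.0694) or PMA replicate 2 (0.0661). FPR1 (−0.28 ± 0.15, adjusted p = 0.221) and FPR3 (0.09 ± 0.09, adjusted p = 0.519) did not pass in limma. The FPR3 means of 4.63 without and 4.72 with PMA were near the lower quartiles, and those of FPR1 were 5.20 and 4.92. Without PMA replicate 3 and unstimulated replicate 1 together, FPR1 passed as lower (−0.51, limma adjusted p = 0.00638).

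Plasminogen activation at the cell surface, the process served by ANXA2 and S100A10, was represented by 8 genes, 6 of them measured. Of these 6, 3 rose and 1 fell, beside 13.2% of all genes each way, and their median was 0.73 against −0.03 over all genes. The urokinase receptor PLAUR rose by 2.50 ± 0.21, urokinase PLAU by 2.22 ± 0.35 and the plasminogen receptor PLGRKT by 1.35 ± 0.17 (limma adjusted p 0.000149, 0.00271 and 0.00111). The PLAU call was lost when the gene's own variance replaced limma's moderated one (adjusted p = 0.0550). PLAUR held 8.56, 9.09 and 9.26 on unstimulated arrays and 11.59, 11.69 and 11.13 on PMA arrays. ENO1, a glycolytic enzyme that also binds plasminogen, fell by 0.46 on the log2 scale (limma adjusted p = 0.00601). Tissue plasminogen activator, PLAT, the ligand of the ANXA2 tetramer, did not pass (0.12 ± 0.09, limma adjusted p = 0.399). PLAT and the plasminogen gene, PLG, are members of the partner list too.

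Phosphatidylserine exposure and uptake of dying cells, the setting of ANXA5, was represented by 32 genes, 30 of them measured. In this list 12 of 30 rose and 4 fell, beside 13.2% of all genes each way, with a median of 0.08 against −0.03. Bridging molecules and integrins that recognise phosphatidylserine complexes were the largest rises: ITGB3 (3.60 ± 0.58), THBS1 (3.51 ± 0.15) and ITGB5 (3.34 ± 0.30), with limma adjusted p of 0.00308, 6.03e-06 and 0.00019. ITGB3 moved with single arrays, to 3.02 without PMA replicate 2 and 4.34 without PMA replicate 3, so the order of these genes is not settled. Its unstimulated values of 4.80, 5.36 and 4.80 were not far above the lower quartiles. The ITGB3 call was lost when the gene's own variance replaced limma's moderated one (adjusted p = 0.0611). The bridging ligand GAS6 (−1.46 ± 0.13), the lipid receptor CD300LF (−1.39 ± 0.12) and AXL, a receptor of GAS6 (−0.99 ± 0.28), were the largest falls (limma adjusted p 0.000224, 0.000163 and 0.037). The other GAS6 receptors in the list, MERTK and TYRO3, were named after their values were seen. MERTK rose by 2.78 ± 0.26 (limma adjusted p = 0.00024), and TYRO3 did not pass (−0.13 ± 0.12, limma adjusted p = 0.473). The AXL call ended in 5 of the 6 fits without 1 array. Without unstimulated replicate 2 or 3, or PMA replicate 1 or 2, 2 members of the list were lower in place of 4.

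Membrane repair, in which annexins seal the wound together with ferlins and calpains, was represented by 21 genes, 17 of them measured. Here 5 of 17 rose and 1 fell, beside 13.2% of all genes each way, with a median of 0.11 against −0.03. The lists overlap, and DYSF is also counted among the 6 partners that were higher. The 5 were DYSF, MYOF, SMPD1 and, named after their values were seen, the ESCRT genes VPS4A (0.64 ± 0.13, limma adjusted p = 0.00958) and CHMP4B (0.42 ± 0.13, limma adjusted p = 0.0451). The VPS4A call was lost when the gene's own variance replaced limma's moderated one (adjusted p = 0.0656). The CHMP4B call ended in 10 of the 16 alternatives, among them 5 of the 6 fits without 1 array (adjusted p 0.0841 to 0.154) and the replicate block (0.0622). The ferlin MYOF rose by 1.42 ± 0.20 and the acid sphingomyelinase SMPD1 by 1.05 ± 0.15 (limma adjusted p 0.00163 and 0.00172). Dysferlin, DYSF, which binds ANXA1 and ANXA2, was 4.79, 4.71 and 4.80 in unstimulated cells and 6.59, 5.63 and 8.77 with PMA (2.23 ± 0.67, limma adjusted p = 0.0445). PMA replicate 3 was far above the other PMA arrays, the difference was 1.35 without it and 2.92 without PMA replicate 2, and the call ended without PMA replicate 1 or any 1 unstimulated array (adjusted p 0.0860 to 0.128). The calpain CAPN2 was the member that fell (−0.44 ± 0.11, limma adjusted p = 0.0209), a call lost without unstimulated replicate 2 or 3 or PMA replicate 2. Without PMA replicate 1 or any 1 unstimulated array, 3 genes of the list were higher in place of 5.

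**Figure D4:**
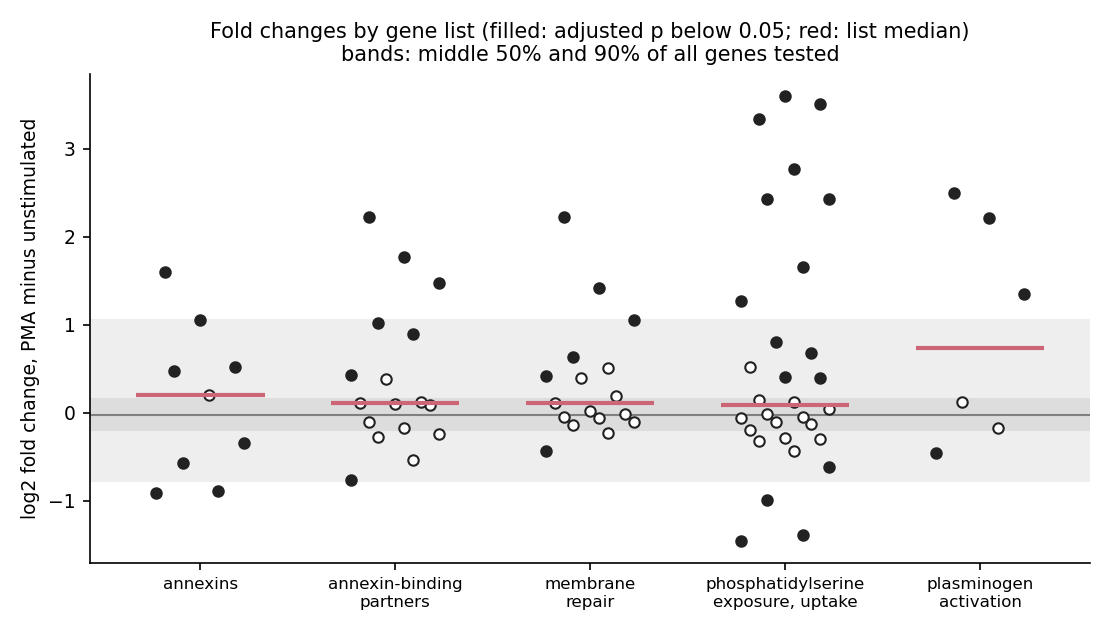
Log2 fold changes (vertical axis) of the 9 annexins and of the 4 gene lists, 1 point per gene, filled where the adjusted p was below 0.05; red lines are list medians and grey bands hold the middle 50% (−0.20 to 0.16) and 90% (−0.78 to 1.06) of all genes tested. The annexin medians and those of partners, repair and phosphatidylserine genes lie between 0.08 and 0.20, with filled points on both sides of 0.

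**Figure D5:**
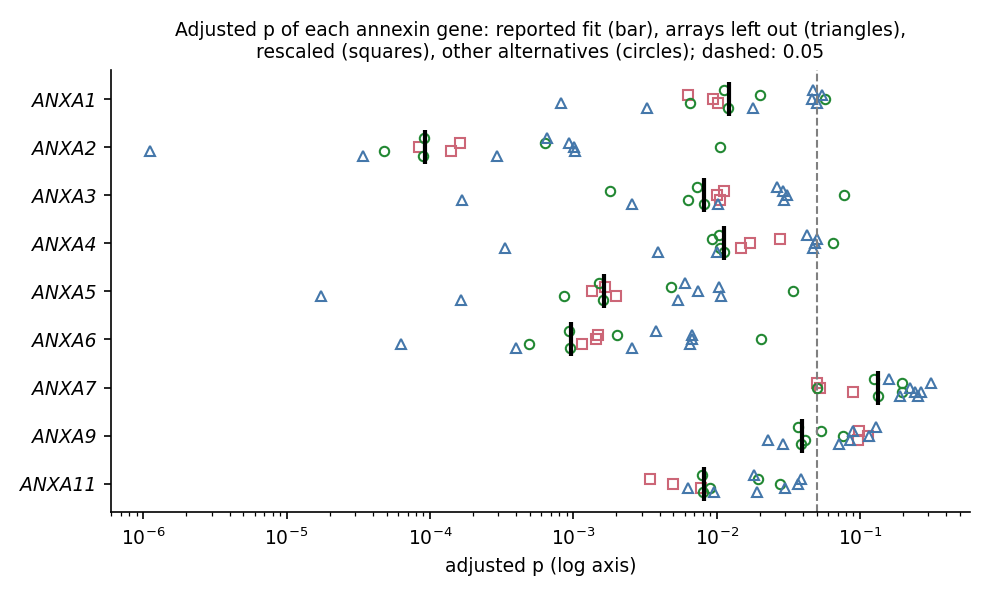
Adjusted p (horizontal log axis) of each annexin gene in the reported limma fit (black bar) and under the alternatives: arrays left out (triangles), arrays rescaled (squares), other choices (circles); the dashed line marks 0.05. ANXA2, ANXA5, ANXA6 and ANXA11 stay left of the line at every point drawn, and ANXA9 lies right of it at most points.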

How the data were processed

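Total RNA was labelled with biotin for Affymetrix arrays. The authors' deposited table holds 1 log2 value per probe set and array, with RMA and Partek named per the submitters' processing notes (no version given). RMA includes background correction and quantile normalization, so small changes in dim genes are compressed. Of 33297 probe sets, 19460 carried 1 gene symbol in the platform annotation (19429 matched the GRCh38.p14 gene table), 1754 carried several and 12083 were unnamed; only the first kind was used. The probe set with the highest mean over the 6 arrays stood for a gene, with no filter on dim genes.

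Groups came from sample titles. A model with group alone was fitted to 18417 genes in limma 3.58.1 (R 4.3.3; eBayes, 7.71 degrees of freedom in total) and gave fold changes, standard errors and adjusted p-values (Benjamini-Hochberg, threshold 0.05). The number of arrays limits the precision, and the steps were tested on simulated data. Members, lists and alternatives were chosen with earlier results of these data known. Named were all 9 annexins, the other annexin genes on the array, the cell type markers, 12 partners with stated roles, up to 3 rises and 3 falls past the threshold per list, and the 5 genes closest to ANXA2. Alternatives changed the scaling, the filter, the probe set rule, the variance model, the replicate block, the threshold and the arrays used. Replicate numbers were checked as pairs: deviations from group means correlated at 0.18, −0.02 and 0.05 for numbers 1, 2 and 3. Unequal numbers gave −0.15 to 0.11. The 3 deviations in a group depend on each other, so this check cannot decide whether equal numbers mark a shared culture or batch. Figures were drawn with matplotlib 3.10.9.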

Additional observations from a re-analysis of the deposited data

How the results depend on the processing

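All 9 annexins kept their direction under each of the 16 alternatives run. Only the rescalings and the fits with arrays left out could have turned a direction. The variance models, the replicate block, the threshold, the filter and the probe set rule leave the fold changes of the annexins as they are. Of 144 combinations of gene and alternative, 124 kept their side of the threshold, 19 lost the call and 1 gained it. Leaving out 1 array at a time gave 3 to 4 annexins higher and 2 to 4 lower, 1726 to 2593 genes higher and 1597 (without PMA replicate 1) to 2449 lower over all genes, 3 to 7 partners higher and 0 to 2 lower, 3 to 5 repair genes higher and 0 to 1 lower, 10 to 12 phosphatidylserine genes higher and 2 to 5 lower, and 3 plasminogen genes higher and 1 lower. With each gene's own variance in place of limma's moderated one, 3 annexins were higher and 1 lower (ANXA6). There ANXA1, ANXA3, ANXA4 and ANXA9 lost their calls (adjusted p 0.0566 to 0.0768). In that test 1 partner was higher and 0 lower, and 3 repair genes were higher and 0 lower. Of the phosphatidylserine genes 8 were higher and 2 lower, and of the plasminogen genes 2 were higher and 1 lower. Over all genes 1385 were higher and 1458 lower. At an adjusted p of 0.01, 3 annexins were higher and 2 lower, 3 partners higher and 0 lower, and 3 repair genes higher and 0 lower. At that threshold 9 phosphatidylserine genes were higher and 2 lower, with 1509 genes higher and 1315 lower over all genes. With arrays centred on their medians, 0 repair genes and 2 phosphatidylserine genes were lower, and 61.8% of all called genes were higher, against 50.1% in the reported fit; with cyclic loess 0 repair genes were lower and 59.8% of called genes were higher. With the lowest 25% of genes left out, 0 partners were lower because FPR2 was no longer tested. Without PMA replicate 3 and unstimulated replicate 1 together, 4 partners, 7 phosphatidylserine genes and 3098 of all genes were lower. With the replicate number as a block, 4 annexins were higher and 3 lower (ANXA9 did not pass, adjusted p = 0.0531), and 2409 genes were higher and 2317 lower over all genes. Not every array correlated best with its own number, so the block is not read as a pairing. Otherwise the cause was not tested. Values near the lower quartiles (ANXA3 and FPR2 with PMA) limit the size of those falls.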
